A study of Mus musculus with 4 samples.

Results

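The genes described here are 9 that serve glucose metabolism and insulin signalling in the liver, out of 23462 genes that could be named on the arrays. They were chosen by symbol: Slc2a2, Pklr, Fbp1, Pck1, G6pc, Irs1, Irs2, Foxo1 and Ppargc1a. Every probe whose transcript accession maps to one of these symbols was taken, which gave 11 probes, 1 for each of 7 genes and 2 each for Foxo1 and Ppargc1a. All 11 probes were well above background on all 4 arrays.

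The study asked how loss of LPIAT1, the enzyme that places arachidonic acid in phosphatidylinositol and that is encoded by Mboat7 (also called Lpiat1), acts on the liver with and without dietary fat. Liver RNA of 4 groups of male mice was measured on single-colour Agilent arrays, with 1 array in each group, all on the same slide and from the same scan. F/F mice carried floxed Lpiat1 alleles without Cre. LKO mice carried these alleles together with Alb-Cre, a recombinase under the albumin promoter that acts in hepatocytes, so other liver cells kept the gene. Both genotypes were of C57BL/6 background and 24 weeks old, and each received either chow or a high fat diet (HFD) for 18 weeks from the age of 6 weeks. Whether an array held the RNA of 1 mouse or of a pool, and the feeding state and hour at which these livers were taken, are not given in the sources used here.

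Hepatocytes take up and release glucose through the transporter GLUT2, burn it by glycolysis when it is plentiful, and make it anew by gluconeogenesis in fasting. Insulin acts through its receptor and the adaptors IRS1 and IRS2 on the kinase AKT, which phosphorylates the transcription factor FOXO1 and so moves it out of the nucleus, where it otherwise raises gluconeogenic genes. The coactivator PGC-1α, product of Ppargc1a, is raised by fasting signals and acts with FOXO1 and HNF4α on these genes.

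A level below is the log2 of the background-corrected spot signal minus the 75th percentile of its array, so that 0 is the 75th percentile and 1 unit is a doubling. Where 4 values of a gene follow each other without names, they stand for F/F and then LKO on chow, and then F/F and LKO on HFD. With 1 array in each group no difference has a replicate check and no p-value is given. The error at hand comes from probes spotted several times on an array: the difference between 2 such spots had an SD of 0.096 log2 units (295 probes well above background), and levels of a gene closer than 2 SD, or 0.193, are written as not separated. This covers spots and not mice, dissection or labelling, and 34.0%, 51.0%, 62.8% and 67.8% of measured genes differed by more than this in LKO against F/F on chow, LKO against F/F on HFD, HFD against chow in F/F and HFD against chow in LKO. The error that the scanner software gave for the brighter probe of each member came to 0.204 log2 units for a difference between 2 arrays. It was 10.0% of the signal for each of these probes and arrays, so it is near a constant. It is not a measured spread and does not cover mice, dissection or labelling either.

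Of the hepatocyte markers, 12 of 12 were well above background on every array. Alb, which had the highest mean signal of them over the 4 arrays, had signals of 231569, 228565, 221091 and 222615. In the same sense a marker is called the brightest of its list below, which need not hold on each array and compares different probes. The targeted gene Mboat7 had 1 probe, with a level of 2.31 in F/F chow, 2.01 in LKO chow, 2.17 in F/F HFD and 1.90 in LKO HFD. LKO minus F/F was -0.30 for the chow arrays and -0.27 for the HFD arrays, both past 0.193. Whether this probe lies in the deleted part of the gene was not determined. A probe outside that part does not check the genotype, and Mboat7 RNA of cells without Cre is measured too.

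At a threshold of 2-fold, none of the 9 genes differed between LKO and F/F on chow, where 2.14% of 14981 genes with a value did. On HFD, 1 of 9 did (G6pc, lower in LKO), against 4.26% of 15528 genes. Between HFD and chow, 2 of 9 passed in F/F (G6pc higher, Irs2 lower), against 8.15% of 15358 genes, and 0 of 9 passed in LKO, against 12.2% of 15242 genes. Each of these counts rests on at most 2 genes, so nothing is read from them about the 9 genes as a group, and the descriptions below are of single genes. The comparisons share arrays: a value of 1 array enters both a genotype and a diet comparison.

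**Figure D1:**
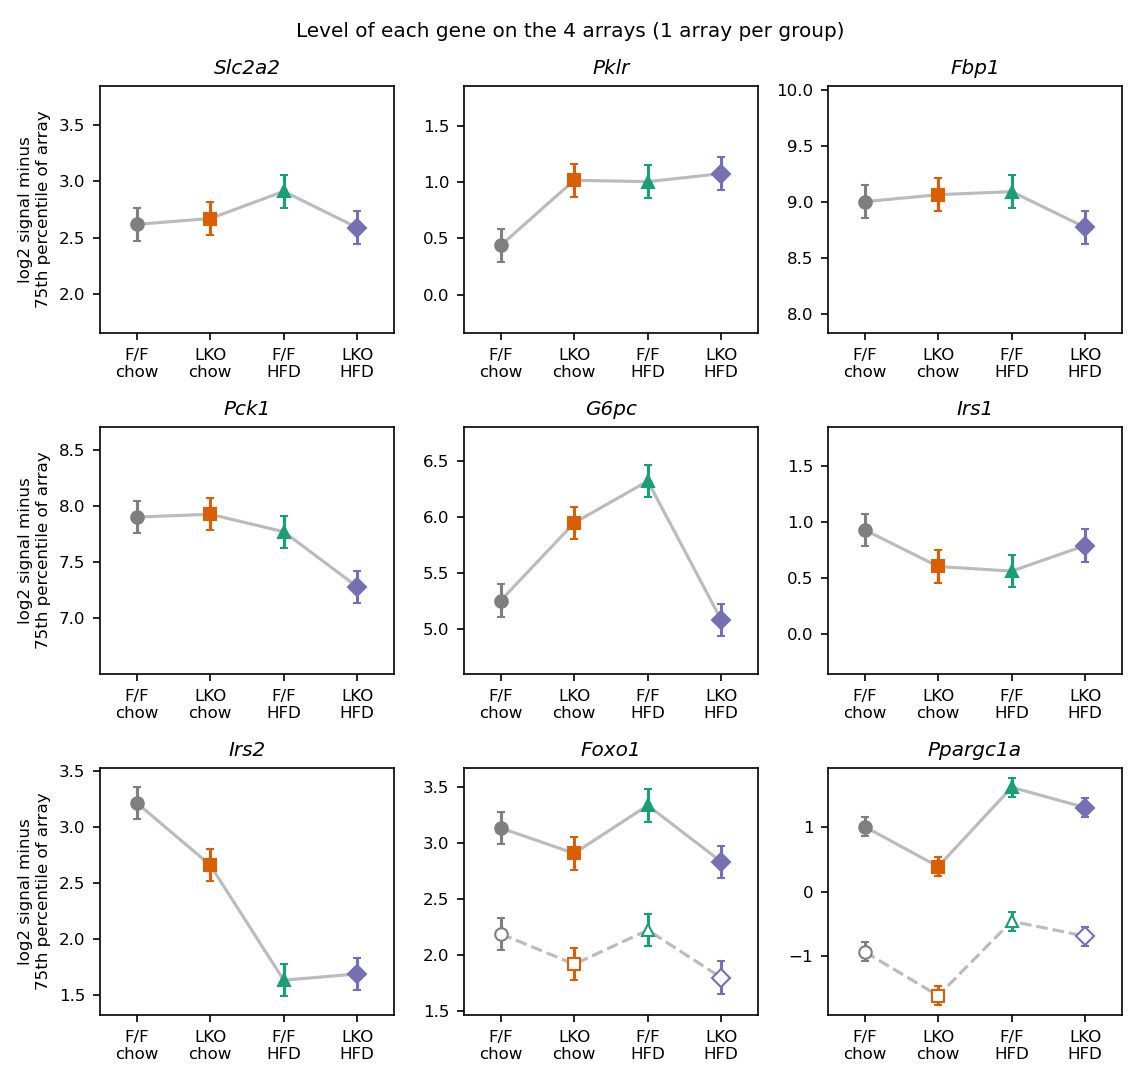
Level of each gene (log2 signal minus the 75th percentile of the array, vertical axis) on the 4 arrays (horizontal axis), 1 array in each group. With filled symbols for the brighter probe, open symbols for the second probe of Foxo1 and Ppargc1a, and bars for the error the scanner software gave each spot, G6pc was highest in F/F HFD (6.32) and lowest in LKO HFD (5.08), and Irs2 was highest in F/F chow (3.22).

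Transport was represented by Slc2a2, which encodes GLUT2. Its level was 2.62 in F/F chow, 2.67 in LKO chow, 2.91 in F/F HFD and 2.59 in LKO HFD. F/F HFD stood above the other groups, by 0.24 over the next, and the remaining 3 levels were not separated. The genotype difference was 0.05 on chow and -0.32 on HFD, 1.25-fold lower in LKO. The diet difference was 0.29 in F/F and -0.08 in LKO, and the latter turned to 0.00 with quantile normalization.

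Pklr encodes the pyruvate kinase of liver, which catalyses the last step of glycolysis and is raised by glucose and insulin. Its level was 0.44 in F/F chow, 1.02 in LKO chow, 1.01 in F/F HFD and 1.08 in LKO HFD. F/F chow was lowest, 0.57 under the next, and the other 3 groups were not separated. On chow LKO was 1.49-fold above F/F (log2 difference 0.58), and in F/F the HFD group was 1.48-fold above chow (0.57). The corresponding differences were 0.07 for genotype on HFD and 0.06 for diet in LKO.

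Of the gluconeogenic enzymes among the 9 genes, PEPCK (Pck1) acts earliest, fructose-1,6-bisphosphatase (Fbp1) after it and glucose-6-phosphatase (G6pc) last, where free glucose is released. Pck1 had a level of 7.90 in F/F chow, 7.93 in LKO chow, 7.77 in F/F HFD and 7.28 in LKO HFD. LKO HFD was lowest, 0.49 under F/F HFD or 1.40-fold, and the other 3 groups were not separated. The diet difference in LKO was -0.65, and with quantile normalization it was -0.30. In F/F the diet difference was -0.13, and 0.08 with quantile normalization; on chow the genotype difference was 0.03, and -0.04 with that scaling, so neither has a settled direction.

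Fbp1 had a level of 9.001 in F/F chow, 9.064 in LKO chow, 9.091 in F/F HFD and 8.772 in LKO HFD. LKO HFD was lowest by 0.23, and the other 3 levels were not separated. The genotype difference was 0.06 on chow and -0.32 on HFD, the latter -0.14 with quantile normalization. The diet difference in F/F was 0.09, and 0.46 with that scaling. The diet difference in LKO was -0.29, and 0.27 with quantile normalization, so its direction and the order of the groups depend on the scaling.

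Pck1 and Fbp1 lie among the bright probes, whose medians shifted most between the scalings. The genes with a mean level of 6 or more had a median difference of -0.39 for diet in LKO, -0.19 for diet in F/F, -0.20 for genotype on HFD and 0.04 for genotype on chow. The drop of Fbp1 in LKO HFD is no larger against chow than the median of these genes, and that of Pck1 exceeds it.

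Of the 9 genes, G6pc had the genotype difference of largest size on each diet. On chow Ppargc1a came close, with -0.62 and -0.68 by its 2 probes against 0.69. The signal of G6pc was 8475 in F/F chow, 13171 in LKO chow, 21036 in F/F HFD and 10028 in LKO HFD. Its levels were 5.26, 5.95, 6.32 and 5.08 in that order. F/F HFD was highest and LKO chow next, each separated from its neighbours, and F/F chow and LKO HFD, 0.17 apart, were not separated. On chow LKO was 1.62-fold above F/F (0.69), and on HFD it was 2.36-fold below (-1.24). HFD went with a 2.09-fold higher level in F/F and with a 1.82-fold lower level in LKO.

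For a genotype difference on HFD minus that on chow, the scanner software error was 0.289 for each of the 9 genes (brighter probe). It is near a constant and not a spread between mice. For G6pc this genotype difference on HFD minus that on chow was -1.93, and no test of it was possible. Over the 13981 genes measured on all arrays the median of this quantity was -0.05, and 37 genes (0.265%) had a value as far down as that of G6pc or farther. Its sign and those of the 4 differences of G6pc were the same under the other scalings tried, where the value lay between -1.97 and -1.87. Other probe rules and filters could not change these values, since G6pc had 1 probe, measured on all arrays. Nor could the deposited table, which differs from the signals used by 1 factor for each array. Of the other 8 genes, the 5 whose value was negative were Slc2a2 (-0.38), Pklr (-0.51), Fbp1 (-0.38), Pck1 (-0.52) and Foxo1 (-0.28). Fbp1 was at -0.19 with quantile normalization, and Foxo1 was at -0.12 with normexp and at -0.15 by its second probe. Irs1 (0.55), Irs2 (0.61) and Ppargc1a (0.31, and 0.19 with normexp) had positive values. In bulk liver, fewer hepatocytes and less RNA in each hepatocyte cannot be told apart for a single gene. The 12 hepatocyte markers had differences from -0.57 to 0.10 between LKO and F/F on HFD and from -0.11 to 0.08 on chow.

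**Figure D2:**
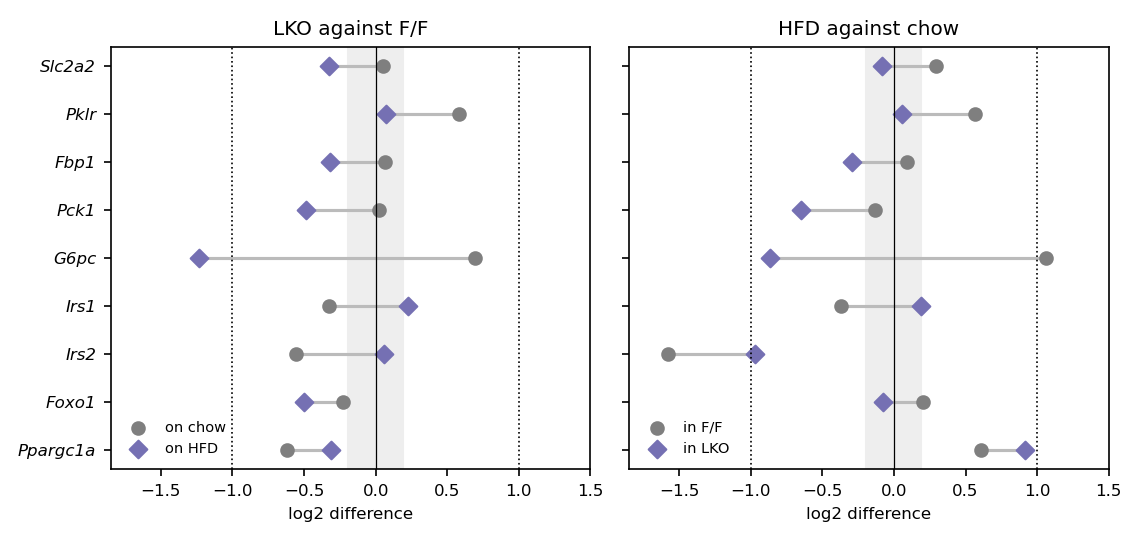
Log2 differences of the 9 genes (brighter probe): LKO against F/F on chow and on HFD (left), and HFD against chow in F/F and in LKO (right). Dotted lines mark 2-fold and the grey band 2 SD of the difference of replicate spots (0.193); G6pc lies on opposite sides of 0 in both panels (0.69 and -1.24 for genotype, 1.06 and -0.86 for diet).

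In insulin signalling, Irs1 and Irs2 encode the adaptors that bind the activated receptor. Irs2 had a signal of 2060 in F/F chow, 1349 in LKO chow, 818 in F/F HFD and 955 in LKO HFD, with levels of 3.22, 2.66, 1.64 and 1.69. F/F chow was highest, LKO chow next, and both HFD groups were lowest and not separated, although with normexp background correction they were 0.23 apart. HFD went with a 2.99-fold lower level in F/F and a 1.96-fold lower one in LKO, the latter just under the 2-fold threshold. On chow LKO was 1.47-fold below F/F (-0.55), and on HFD the genotype difference was 0.06.

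Irs1 moved less. Its level was 0.93 in F/F chow, 0.60 in LKO chow, 0.56 in F/F HFD and 0.79 in LKO HFD. From high to low the order was F/F chow, LKO HFD, LKO chow and F/F HFD, and no neighbours in it were separated, except that LKO HFD was above LKO chow by 0.21 with quantile normalization and by up to 0.26 with other scalings, although its ends were 1.29-fold apart. The genotype difference was -0.33 on chow and 0.23 on HFD; the diet difference was -0.37 in F/F and 0.187 in LKO.

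Foxo1, the transcription factor that insulin restrains, had 2 probes. The brighter had a level of 3.13 in F/F chow, 2.91 in LKO chow, 3.33 in F/F HFD and 2.83 in LKO HFD. The second had 2.19, 1.92, 2.22 and 1.80 in the same groups. Both ranked F/F HFD, F/F chow, LKO chow and LKO HFD from high to low, and LKO chow was not separated from LKO HFD by either, whereas F/F HFD was separated from F/F chow by the brighter probe alone, and not with normexp (0.16). On either diet the LKO level of Foxo1 was the lower one, with differences of -0.23 and -0.27 on chow and -0.50 and -0.42 on HFD for the brighter and the second probe. The diet difference in F/F was 0.20 and 0.03, and in LKO it was -0.07 and -0.12, where normexp and quantile normalization gave values above 0 for the brighter probe.

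Ppargc1a also had 2 probes. The brighter had a signal of 447 in F/F chow, 280.1 in LKO chow, 810 in F/F HFD and 733 in LKO HFD, with levels of 1.01, 0.39, 1.62 and 1.31. The second probe had levels of -0.93, -1.61, -0.45 and -0.69. With both probes F/F HFD was highest, then LKO HFD, F/F chow and LKO chow, and each neighbour was separated from the next. HFD went with a higher level in both genotypes, by 0.61 and 0.47 in F/F and by 0.92 and 0.92 in LKO for the brighter and the second probe. LKO was below F/F on both diets, with differences of -0.62 and -0.68 on chow and -0.31 and -0.23 on HFD.

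The 2 probes of Foxo1 differed in a comparison by at most 0.17 and those of Ppargc1a by at most 0.14. Over all genes with several measured probes, the SD of the difference between 2 probes of a gene was 0.28 in LKO against F/F on chow and 0.41 in HFD against chow in LKO.

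G6pc, Irs2 and Ppargc1a were the genes whose highest and lowest level were at least 2-fold apart. For these, the genes with the most similar pattern were sought among 13972 others measured on all arrays, by the root mean square distance between levels centred over the 4 arrays. Nearest to G6pc were BC049762 (distance 0.10), 2810408I11Rik (0.13) and Kiss1 (0.14), and 11 genes lay within 0.2. Kiss1, which encodes the peptide hormone kisspeptin, had signals of 161, 232, 371 and 222. Nearest to Irs2 were 2310079G19Rik (0.065), Slco2a1 (0.078), a prostaglandin transporter with signals of 1942, 1363, 897 and 955, and Gdf9 (0.081), with 49 genes within 0.2. Nearest to Ppargc1a were Klf4 (0.032), a transcription factor with signals of 502, 302, 858 and 810.1, Rasd1 (0.048) and Septin1 (0.052), with 101 genes within 0.2. A likeness over 4 arrays is a description.

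**Figure D3:**
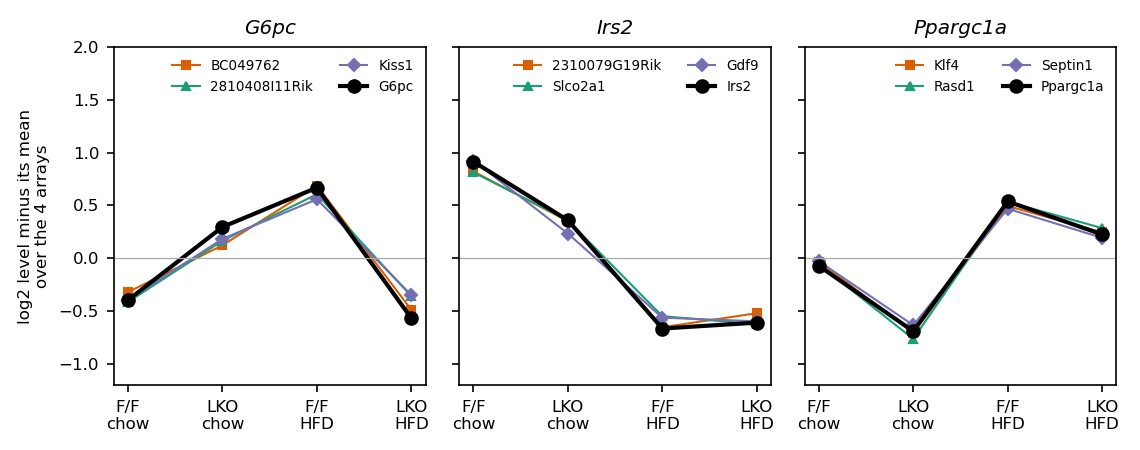
Level minus its mean over the 4 arrays (log2, vertical axis) on each array (horizontal axis) for G6pc, Irs2 and Ppargc1a (black) and the 3 genes with the nearest pattern to each (coloured). The lines of Ppargc1a and Klf4 lie 0.032 apart (root mean square).

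The promoters of G6pc, Pck1, Irs2 and Ppargc1a are shown because G6pc, Irs2 and Ppargc1a spanned at least 2-fold and Pck1 encodes the enzyme that makes phosphoenolpyruvate for gluconeogenesis. They are the 250 bases before the transcription start, from RefSeq on mouse build GRCm38.p6, 5′ to 3′ on the strand of the gene: chr11:101367466-101367715 (plus strand) for G6pc, chr2:173152823-173153072 (plus) for Pck1, chr8:11008930-11009179 (minus) for Irs2 and chr5:51567726-51567975 (minus) for Ppargc1a. Capitals mark matches to CAAAACA or GTAAACA (letters bound by FOXO factors), TGACG or TGACGTCA (CREB), CACGTG (E-box, part of a ChREBP element) and CAAAGTCCA (HNF4), searched on both strands.
G6pc: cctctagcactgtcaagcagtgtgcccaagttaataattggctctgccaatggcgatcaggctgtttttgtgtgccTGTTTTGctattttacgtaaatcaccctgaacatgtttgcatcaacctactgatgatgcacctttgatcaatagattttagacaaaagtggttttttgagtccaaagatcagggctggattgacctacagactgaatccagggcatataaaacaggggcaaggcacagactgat
Pck1: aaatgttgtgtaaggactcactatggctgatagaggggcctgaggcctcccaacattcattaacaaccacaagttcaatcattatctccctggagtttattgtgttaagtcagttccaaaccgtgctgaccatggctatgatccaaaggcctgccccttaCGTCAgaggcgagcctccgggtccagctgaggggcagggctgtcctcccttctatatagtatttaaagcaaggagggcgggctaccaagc
Irs2: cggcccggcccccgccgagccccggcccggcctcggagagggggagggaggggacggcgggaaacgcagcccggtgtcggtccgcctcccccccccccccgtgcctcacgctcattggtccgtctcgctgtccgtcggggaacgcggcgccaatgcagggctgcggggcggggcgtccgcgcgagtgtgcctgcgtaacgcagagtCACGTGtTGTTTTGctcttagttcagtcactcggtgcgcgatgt
Ppargc1a: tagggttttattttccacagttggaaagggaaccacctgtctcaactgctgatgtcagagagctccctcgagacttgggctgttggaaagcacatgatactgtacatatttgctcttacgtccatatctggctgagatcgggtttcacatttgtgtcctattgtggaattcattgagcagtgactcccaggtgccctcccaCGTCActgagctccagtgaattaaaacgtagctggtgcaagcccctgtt

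All 9 genes had a window in the table, and Pklr had 2. CAAAACA was found in the windows of 3 of 9 genes, G6pc, Irs1 and Irs2, and in 6.28% of all 32851 windows of 300 bases. In G6pc its reverse complement TGTTTTG begins 174 bases before the start. In Irs2 it begins 37 bases before the start, next to CACGTG at 44 bases. CACGTG was found in the windows of Irs1 and Irs2, 2 of 9, and in 7.15% of windows. TGACG was found in Pck1, Irs1 and Ppargc1a, 3 of 9, and in 20.8% of windows (TGACGTCA holds it, and in Irs1 it overlaps CACGTG); in Pck1 its reverse complement CGTCA begins 90 bases before the start and in Ppargc1a 49 bases. GTAAACA (3.65% of windows), TGACGTCA (1.79%) and CAAAGTCCA (0.475%) were in none of the 9. A match describes letters and is not a binding site, and its absence says only that these letters are not in this window.

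Other genes of the same pathways were described by lists, with the 9 genes left out of the counts below. Over all genes, 7379 of 14981 were lower in LKO on chow and 8396 of 15528 on HFD, and for diet 8024 of 15358 were lower on HFD in F/F and 8615 of 15242 in LKO; with quantile normalization 7658, 8045, 7285 and 7689 were lower, so the side with more genes turned on chow and for diet in F/F. Of the other gluconeogenesis genes, 22 of 23 were higher in LKO than in F/F on chow, with a median difference of 0.15 against 0.00 over all genes. On HFD, 20 of 24 were lower in LKO, with a median of -0.20 against -0.03. HFD went with higher levels of 17 of 23 in F/F (median 0.16 against -0.02) and lower levels of 18 of 23 in LKO (median -0.25 against -0.07). None of these genes passed 2-fold except Pck2, mitochondrial PEPCK, which was 2.17-fold higher on HFD in LKO. Most of the list, 20 of 24, had mean levels of 4 or more, and all genes with mean levels from 4 to 6 had a median of -0.13 for genotype on HFD. With quantile normalization the medians were 0.12 on chow and -0.18 on HFD for genotype, and 0.35 in F/F and 0.00 in LKO for diet, so the lower level on HFD in LKO was not seen with that scaling. Of the 12 hepatocyte markers, 10 were lower in LKO than in F/F on HFD (median -0.19, and -0.01 with quantile normalization). The lists below that were lower in LKO on HFD stand beside the same values. The part of hepatocyte content in these lists was not tested.

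**Figure D4:**
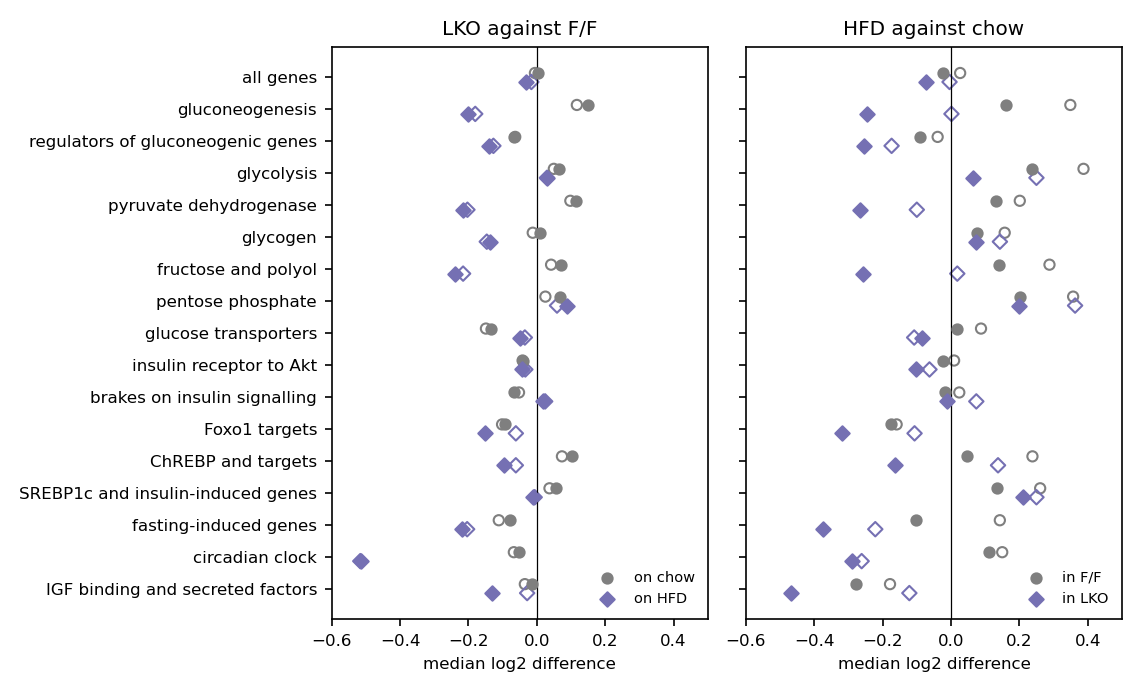
Median log2 difference of each gene list without the 9 genes (horizontal axis): LKO against F/F on chow and HFD (left), HFD against chow in F/F and LKO (right). Filled symbols are the 75th percentile scaling and open symbols quantile normalization; the gluconeogenesis list had medians of 0.15 on chow and -0.20 on HFD for genotype.

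Among the factors that regulate gluconeogenic genes, 26 of 36 were lower in LKO on HFD (median -0.14 against -0.03 over all genes). The immediate early receptor Nr4a1, which is induced by glucagon and cyclic AMP, had signals of 477 in F/F chow, 236 in LKO chow, 2356 in F/F HFD and 925 in LKO HFD. It was higher on HFD in both genotypes, 4.16-fold in F/F and 2.83-fold in LKO, and on HFD 2.86-fold lower in LKO than in F/F. Foxa1 was 2.37-fold lower on HFD in F/F.

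Of 27 other glycolysis genes, 2 were at least 2-fold higher and 1 lower in LKO on chow, and of 28, 0 were so on HFD. Over all genes 2.14% and 4.26% passed either way. The glycolysis medians were 0.06 and 0.03. For diet, 1 of 27 in F/F and 6 of 28 in LKO were at least 2-fold higher on HFD and 0 lower, against 8.15% and 12.2% of all genes either way. The medians of the list for diet were 0.24 and 0.06 (0.39 and 0.25 with quantile normalization). Hk2, a hexokinase scarce in normal hepatocytes, had signals of 18.7, 48.9, 132 and 153. It was 2.71-fold above F/F in LKO on chow and 5.95-fold higher on HFD than chow in F/F. Pfkfb3, whose product makes the activator of phosphofructokinase, was 2.02-fold lower in LKO on chow. Pfkp and Hk3, isoforms also found in blood cells, were 3.39-fold and 3.02-fold higher on HFD in LKO.

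Pdk4, a kinase that shuts pyruvate dehydrogenase in fasting, had signals of 1709 in F/F chow, 821 in LKO chow, 428 in F/F HFD and 878 in LKO HFD. It was 2.002-fold lower in LKO on chow, and on HFD the genotype difference was 0.87. In F/F it was 4.73-fold lower on HFD, and in LKO the diet difference was -0.37. The other genes of the pyruvate dehydrogenase list did not pass 2-fold in any comparison, and 10 of 13 genes of the list were lower in LKO on HFD (median -0.22).

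In the glycogen list, Ppp1r3g, a subunit that directs phosphatase to glycogen, had signals of 1308, 1118, 5890 and 2122. It was 3.80-fold higher on HFD in F/F and 3.12-fold lower in LKO than F/F on HFD. Pygb, the brain form of glycogen phosphorylase, was 2.04-fold higher on HFD in F/F, 3.99-fold in LKO, and 2.24-fold higher in LKO than F/F on HFD. In LKO on HFD, Ppp1r3d was 2.31-fold higher and Ppp1r3b, the main such subunit of liver, 2.08-fold lower than on chow. The fructose transporter gene Slc2a5 was 2.41-fold lower in LKO on HFD, Akr1b3 (aldose reductase) was 2.40-fold higher on HFD in LKO, and Slc2a4 (GLUT4) was 2.04-fold higher in LKO on chow. None of the 8 genes of the pentose phosphate pathway passed 2-fold, with medians of 0.07 on chow and 0.09 on HFD for genotype and 0.20 in each genotype for diet (0.03, 0.06 and 0.36 with quantile normalization). For the other lists of this group the genotype medians on chow and HFD were 0.01 and -0.14 for glycogen (the former -0.01 with quantile normalization), 0.07 and -0.24 for fructose and polyols (the former 0.04 with that scaling), and -0.13 and -0.05 for glucose transporters.

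The list from the insulin receptor to AKT had 38 or 39 other genes with a value. For genotype on chow, genotype on HFD and diet in F/F 0 passed 2-fold, against 2.14%, 4.26% and 8.15% of all genes. For diet in LKO 1 did (Tbc1d1, 2.02-fold higher), against 12.2%. Log2 differences of single genes ran from -0.64 to 0.33 and from -0.84 to 0.64 for genotype on chow and HFD. For diet they ran from -0.82 to 0.67 in F/F and from -0.89 to 1.02 in LKO. The medians for genotype were -0.04 on chow and -0.04 on HFD. For diet they were -0.10 in LKO (-0.06 with quantile normalization) and -0.02 in F/F (0.01 with quantile normalization). Counted with its 3 members of the 9 genes, the list's HFD genotype median reached 0 with the percentile taken over measured probes. Counted in the same way, its diet median in F/F lay between -0.22 and 0.04 under the other processings. Among 27 genes that act as brakes on this pathway, 18 were lower in LKO on chow, and of 28, 15 were higher on HFD (medians -0.07 and 0.02, the latter below 0 with normexp and with scaling to the median). Socs3, a feedback inhibitor induced by cytokines, had signals of 7072 in F/F chow, 2097 in LKO chow, 515 in F/F HFD and 1398 in LKO HFD. It was 16.3-fold lower on HFD in F/F and 2.08-fold lower in LKO; LKO was 3.25-fold below F/F on chow and 2.42-fold above it on HFD. Socs2 was 6.64-fold lower on HFD in F/F and 2.65-fold higher in LKO than F/F on HFD. Trib3, which binds AKT, was higher on HFD in both genotypes, 2.56-fold and 2.55-fold, and Ddit4, an inhibitor of mTORC1, was 3.25-fold higher on HFD in F/F.

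Among targets of FOXO1 other than the 9 genes, 15 of 23 were lower in LKO on chow (median -0.09 against 0.00 over all genes) and 15 of 23 on HFD (median -0.15 against -0.03, and -0.06 with quantile normalization). Against the 8396 of 15528 genes lower on HFD, the count on HFD is an excess of few genes. The stress gene Gadd45a was 2.34-fold and 2.23-fold lower in LKO on chow and on HFD. In the ChREBP list, 18 of 25 were higher in LKO on chow (median 0.10) and 15 of 25 were lower on HFD (median -0.10, and -0.06 with quantile normalization), and Rgs16 was 2.99-fold higher on HFD in F/F. In the SREBP1c and insulin-induced list, 15 of 18 were higher on HFD in F/F (median 0.13, and 0.26 with quantile normalization) and Egr1 was 2.82-fold and 2.05-fold lower in LKO on chow and on HFD.

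Of the other genes induced in fasting, 15 of 20 were lower in LKO than in F/F on HFD (median -0.22 against -0.03 over all genes), and 16 of 20 were lower on HFD than on chow in LKO (median -0.38 against -0.07, and -0.22 with 14 of 20 lower after quantile normalization). Of the 20, 13 had mean levels of 4 or more. All genes with levels from 4 to 6 had medians of -0.13 for genotype on HFD and -0.21 for diet in LKO. Those above had -0.20 and -0.39, so with this scaling the medians of the list lay near those of bright genes. With quantile normalization bright genes had -0.14 in both ranges for genotype on HFD, and -0.06 and -0.07 for diet in LKO. The list was lower than these with that scaling, at -0.20 and -0.22. For diet in F/F, 5 of 20 were at least 2-fold lower and 0 higher, where 452 of all 15358 genes were lower and 800 higher. Counted without a threshold, 11 of the 20 were lower and 9 higher (median -0.10, and 0.14 with quantile normalization). Asns, an ATF4 target, was 2.06-fold higher in LKO on chow and 3.62-fold higher on HFD. Acot1 was 4.44-fold lower on HFD in F/F and 2.08-fold lower in LKO, and Tat, a tyrosine aminotransferase, was 2.05-fold lower on HFD in LKO. Among the secreted factors, 13 of 22 genes were lower in LKO on chow and 14 of 22 on HFD (medians -0.01 and -0.13, the former above 0 with scaling to the median and the latter -0.03 with quantile normalization, where 11 were lower and 10 higher on HFD). Igfbp2 was 3.41-fold and 3.11-fold lower on HFD in F/F and LKO. In LKO on HFD, Fst (follistatin) was 3.72-fold higher and Inhbe 2.42-fold lower than on chow, and Gpnmb, also a macrophage marker, was 5.45-fold higher in LKO on HFD.

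Clock genes differed between the HFD groups as well. G6pc and Ppargc1a are among the liver genes known to follow the time of day and feeding. On HFD, of 17 clock genes 2 were at least 2-fold higher and 3 lower in LKO, with a median of -0.51. On chow 0 of 17 passed 2-fold. Over all genes, 4.26% passed either way on HFD and 2.14% on chow. For diet, 4 of 17 passed 2-fold in F/F, 3 of them downward, and 1 of 17 in LKO, downward, against 8.15% and 12.2% of all genes. Counted without a threshold, 11 of 17 were higher on HFD in F/F (median 0.11). In LKO 16 of 17 were lower on HFD (median -0.29, and -0.26 with quantile normalization). Arntl (BMAL1) had signals of 145, 102, 31.0 and 178, and it was 5.10-fold higher in LKO on HFD and 5.55-fold lower on HFD than chow in F/F. Dbp, which peaks when Arntl is low, had 6034, 6093, 14397 and 6921, 2.34-fold lower in LKO on HFD and 2.01-fold higher on HFD in F/F. On HFD, Ciart was 2.80-fold lower, Nr1d1 2.08-fold lower and Cry1 2.08-fold higher in LKO, and Cry1 was 2.86-fold lower on HFD in F/F. Nfil3 was lower on HFD in both genotypes, 3.88-fold in F/F and 2.33-fold in LKO. The part of clock and fasting genes in the G6pc values was not tested.

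Markers of other cells moved with diet and genotype too. The summed scaled level of the 12 hepatocyte markers (in multiples of the 75th percentile) was 5984 in F/F chow, 6082 in LKO chow, 4696 in F/F HFD and 4094 in LKO HFD, and 0 of 12 differed 2-fold between genotypes. Counted without a threshold, 6 of 12 were lower in LKO on chow (median 0.00, and -0.03 with quantile normalization). On HFD 10 of 12 were lower in LKO (median -0.19, and -0.01 with quantile normalization). On HFD their median difference from chow was -0.34 in F/F and -0.55 in LKO, and -0.07 and -0.12 with quantile normalization. That of 15 monocyte and macrophage markers was 121, 115, 158 and 209, with Cd5l the brightest, and 4 of 15 were at least 2-fold higher in LKO on HFD and 1 lower. That of 11 stellate cell markers, with Acta2 the brightest on average and Col1a2 above it on both HFD arrays, was 13.7, 15.5, 28.4 and 35.8, and 10 of 11 on chow and 11 of 11 on HFD were higher in LKO (medians 0.21 and 0.39). The part of macrophages and stellate cells in the values of the 9 genes was not tested.

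Exocrine pancreas markers stood out in LKO HFD, where 13 of 15 were at least 2-fold above F/F HFD (median 1.85), whereas on chow 14 of 14 were lower in LKO, 7 of them at least 2-fold (median -1.004). Their summed level was 62.3 in F/F chow, 40.4 in LKO chow, 34.7 in F/F HFD and 74.0 in LKO HFD, with Prss1 not above background on any array. Cela1, the brightest on average, had signals of 7914, 5299, 5408 and 6396 and was 1.05-fold higher in LKO on HFD, so it is not among the 13. Amy2a5, a pancreatic amylase, had signals of 2771, 1788, 1553 and 7177, above Cela1 in LKO HFD, and was picked from the list after the values were seen. Of 12 endocrine pancreas markers, which include G6pc2, a gene related to G6pc, 9 were not well above background on any array, namely Gcg, Sst, Iapp, Pdx1, Nkx6-1, G6pc2, Chga, Pcsk1 and Ppy. Ins2, the brightest of them on average, had a signal of 29.7 in F/F chow and was not above background elsewhere (2.03, 2.10 and 1.96). The part of pancreatic RNA in the values of the 9 genes was not tested.

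Of the remaining lists, 8 of 10 red blood cell markers had a probe and summed to 172, 171, 343 and 174, with Hba-a1 the brightest and Epb42 not above background; F/F HFD stood apart. The 10 adipocyte markers summed to 33.5, 65.0, 128 and 83.0, with Cidec, also expressed in steatotic hepatocytes, the brightest. The sums do not stand for the list, since on chow 5 of 10 were lower in LKO (median 0.02) and for diet in LKO the median was -0.53. The 10 endothelial markers summed to 47.4, 49.0, 57.7 and 57.6 (Clec4g the brightest). The 10 cholangiocyte markers summed to 5.30, 4.78, 13.8 and 15.8 (Spp1 the brightest, Prom1 not above background). Spp1 makes up most of this sum, and for diet in F/F the list had 4 genes higher and 4 lower (median 0.08, below 0 with normexp or with the dimmest probe of a gene). For diet in LKO 7 of 8 were higher (median 0.65). In LKO against F/F, 6 of 7 were lower on chow (median -0.42) and 7 of 8 higher on HFD (median 0.46). Under other processings these 3 medians came as near to 0 as 0.17, -0.08 and 0.15. The 10 skeletal muscle markers summed to 1.18, 2.34, 1.29 and 1.75 (Pvalb the brightest, Ckm not above background). Their part was not tested either.

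**Figure D5:**
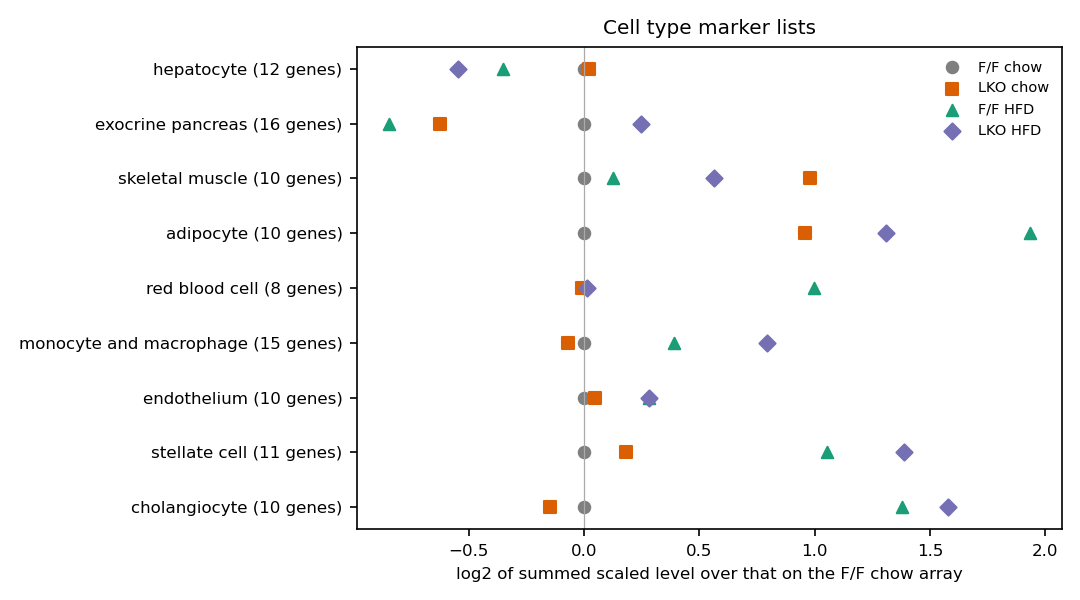
Log2 of the summed scaled level of each marker list over that on the F/F chow array (horizontal axis), for the 4 arrays; endocrine pancreas, mostly below background, is left out. Stellate cell markers summed to 13.7 in F/F chow and 35.8 in LKO HFD, and exocrine pancreas markers to 34.7 in F/F HFD and 74.0 in LKO HFD.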

How the data were processed

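Total RNA of 4 mouse livers or liver pools (1 array in each group) was labelled with Cy3 and hybridised to SurePrint arrays. The labels name a GenElute kit and the methods an RNeasy kit for the RNA. The deposited spot intensity values, per the file headers the processed signal of Agilent Feature Extraction 12.0.3.1, were already background-corrected by the authors' scanner software. The deposited table of values holds the same intensity multiplied by 1 factor for each array (2.60 and 2.63 for F/F and LKO on chow, 2.41 and 2.10 on HFD), with medians of 34.5, 33.2, 36.1 and 36.02. How these factors were set is not stated.

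Control spots were left out. Probes were named through their RefSeq transcript accession (33767 of 56605 probes, 23462 genes; unmatched probes were not used). Signals were log2 transformed and the 75th percentile of each array over 59305 spots (222, 213, 263 and 296) was subtracted. The brightest probe stood for a gene, except that every probe of the 9 genes is given. Spots that the scanner software marked as outliers were left out, and a probe was measured where the software called it well above background (54.2%, 53.0%, 54.6% and 57.0% of spots). Where 1 array was below background the higher of its own signal and the lowest measured signal stood in for it, which gives a bound. Members, gene lists and rules were chosen with earlier results of these data known. Named genes were, for each list other than cell markers, the 2 largest measured differences up and down of at least 2-fold in each comparison; some items that these rules pick are not reported here. There was 1 array in each group, so no test was run. Python 3.11.15, pandas 2.3.3, numpy 2.4.6, matplotlib 3.10.9, R 4.3.3 and limma 3.58.1 were used; the difference step was tested on simulated data. Alternatives were normexp with an offset of 50, quantile normalization, other scalings, other probe rules and other thresholds. The number of arrays limits the precision.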

Additional observations from a re-analysis of the deposited data

Results flagged for a closer look

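Of 45 genes, the 9 and the other named ones, 16 are given here: 2 of the 9 and 14 others. The other named genes were picked for large differences and no share over all genes is at hand, so nothing is read from this count. Each of the 16 had a genotype difference of opposite sign on chow and HFD, or a diet difference of opposite sign in F/F and LKO. Both values were larger than 0.193 in size and came from 1 array of each group. The genotype difference on HFD minus that on chow is given for each on the log2 scale; none of these differences was tested. For G6pc it was -1.93 and for Irs1 0.55. Values below 0 were also found for Rgs16 (-1.40), Ciart (-1.42), Dbp (-1.29), Inhbe (-1.26), Slc2a5 (-1.14) and Ddit4 (-0.89). Values above 0 were found for Socs3 (2.97), Arntl (2.80), Socs2 (2.14), Pdk4 (1.87), Acot1 (1.09), Pfkp (1.03), Foxa1 (0.58) and Ppp1r3d (0.45). For Ciart, Dbp and Slc2a5 the opposite signs are those of the diet differences, for G6pc and Arntl those of both, and for the remaining genes those of the genotype differences.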

How the results depend on the processing

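No paired analysis was possible because each group has 1 array. The member counts of 2-fold differences (0, 1, 2 and 0 in LKO against F/F on chow, on HFD, HFD against chow in F/F and in LKO) were the same in each of the 10 other processings. Filter rules could not change these counts, since all 9 genes were measured on all arrays. The deposited table could not either, since it differs by 1 factor for each array. Probe rules could change only Foxo1 and Ppargc1a, which had 2 probes. At a threshold of 1.5-fold the counts were 2, 1, 3 and 4, and at 4-fold they were 0 in each. Counts over all genes, in the same order of comparisons, were 321, 662, 1252 and 1859 with the processing used, 39, 179, 359 and 668 with normexp, whose offset narrows differences of dim probes, 1479, 1885, 2717 and 3420 with no filter, 1046, 2197, 3507 and 4136 at 1.5-fold and 75, 107, 230 and 325 at 4-fold; with genes measured on all 4 arrays they were 151 and 369 for genotype on chow and HFD. Of 1824 differences of single genes recomputed, 1668 moved by no more than 0.096 and 156 by more, and 0 of those at 2-fold changed sign. The 1668 include values that could not move: those from the deposited table, and those from probe and filter rules for genes with 1 probe measured on all arrays. Signs of smaller member differences turned for Pck1 on chow and for diet in F/F, Slc2a2, Fbp1 and Foxo1 for diet in LKO, with quantile normalization, and for Foxo1 also with normexp; the cause was not tested. No scaling moved the median of all genes by more than 0.1, the largest shift being 0.071. Signal over background did not limit the 9 genes, which were measured on all arrays.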
